A study of Mus musculus with 12 samples.

Results

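The genes of the interleukin-15 (IL-15) receptor and of the signaling steps behind it were followed in subcutaneous TRAMP-C2 tumors, formed in male C57BL/6J mice by a mouse prostate cancer cell line. They are 9 of the 49315 genes counted in every tumor, found by matching the Ensembl identifiers of the count tables to gene symbols: Il15, Il15ra, Il2rb, Il2rg, Jak1, Jak3, Stat5a, Stat5b and Cish. The 12 tumors came from mice that were 6 to 8 weeks old when TRAMP-C2 cells were placed under the skin of the right flank, and treatment by injection into the tumor began at about 200 mm3. The HBSS group (tumors 19, 22R and 22LL) received 3 doses of 50 µl of Hank's balanced salt solution, the vehicle. Tumors 17LL, 18R and 22LR made up the ADU-S100 group and received 3 doses of 50 µg of ADU-S100, a STING agonist, STING being the sensor relay that turns cytosolic DNA into interferon production. The cyto-IL-15 group (9R, 13 and 20LL) received 2 doses of 10 µg of cyto-IL-15, an IL-15 protein modified to anchor in cell membranes, and the combination group (20L, 22 and 28LL) received both agents on those schedules. All tumors were collected on day 6 and whole-tumor RNA was sequenced. The model is a graft of 1 cell line into hosts with an intact immune system, so the RNA of host leukocytes, stroma and neighbouring skin or muscle is counted together with that of tumor cells.

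IL-15 is a cytokine that keeps natural killer (NK) cells and memory CD8 T cells alive and drives their proliferation and cytotoxicity. A cell that makes it usually holds it on its own IL-15Rα chain, encoded by Il15ra, and presents it to a neighbour that carries the IL-2/IL-15Rβ chain (Il2rb) and the common γ chain (Il2rg). These chains bring together the kinases JAK1 and JAK3, which phosphorylate STAT5A and STAT5B, and STAT5 in turn induces Cish, whose product CIS restrains the receptor.

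Every library was deep, with 48772204 to 103700199 counted reads, and the lowest count of any member in any tumor was 81, for Il15 in cyto-IL-15 tumor 13. Levels are given in CPM, each gene's reads as a share of its library, scaled by the trimmed mean of M values (TMM-CPM). Tumors 13 and 28LL stood apart from the tumors that shared their treatment. The 6 leukocyte markers summed to 447 TMM-CPM in tumor 13, below the other 11 tumors, and to 3574 TMM-CPM in tumor 28LL, above them. The 8 epithelial and keratinocyte markers summed to between 14.1 and 278 TMM-CPM, and the 8 fibroblast and endothelial markers to between 9037 and 19072.5 TMM-CPM. The second list includes the collagen genes Col1a1 and Col3a1, and such sums do not measure the origin of the cells. The 15 skeletal muscle fiber markers summed to 12.3 to 14.8 TMM-CPM in the HBSS tumors, 12.7 to 1092 in the cyto-IL-15 tumors, 221 to 2494 in the ADU-S100 tumors and 78.5 to 5864 in the combination tumors. As these were bulk tumors, fewer cells of a type and less RNA per cell cannot be told apart in any level below.

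Divided by exon length, the members of the pathway differed widely in the HBSS tumors. Jak1 was the highest at 25.9 ± 2.51 TMM-CPM per kb (SD, n = 3), followed by Il2rg at 15.9 ± 2.39 and Stat5b at 10.9 ± 0.86. Il2rb at 7.48 ± 1.88 and Jak3 at 7.30 ± 0.50 TMM-CPM per kb were not separated by their spread. Stat5a stood at 4.26 ± 0.16 TMM-CPM per kb, and Il15 (2.57 ± 0.09), Il15ra (2.15 ± 0.52) and Cish (1.29 ± 0.29) were the lowest. Of the 8 pairs of neighbours in this order, 5 had ranges that did not overlap, and the 3 that overlapped were Il2rb with Jak3, Il15 with Il15ra and Il15ra with Cish. The place of Il2rb in this order shifted most between groups. It ranked 4, 5 and 5 among the 9 genes in the HBSS tumors 19, 22R and 22LL, and it ranked first in cyto-IL-15 tumor 20LL and in combination tumors 22 and 28LL. Stat5b was above Stat5a per length in 12 of 12 tumors, by 1.62 to 3.00 times.

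**Figure D1:**
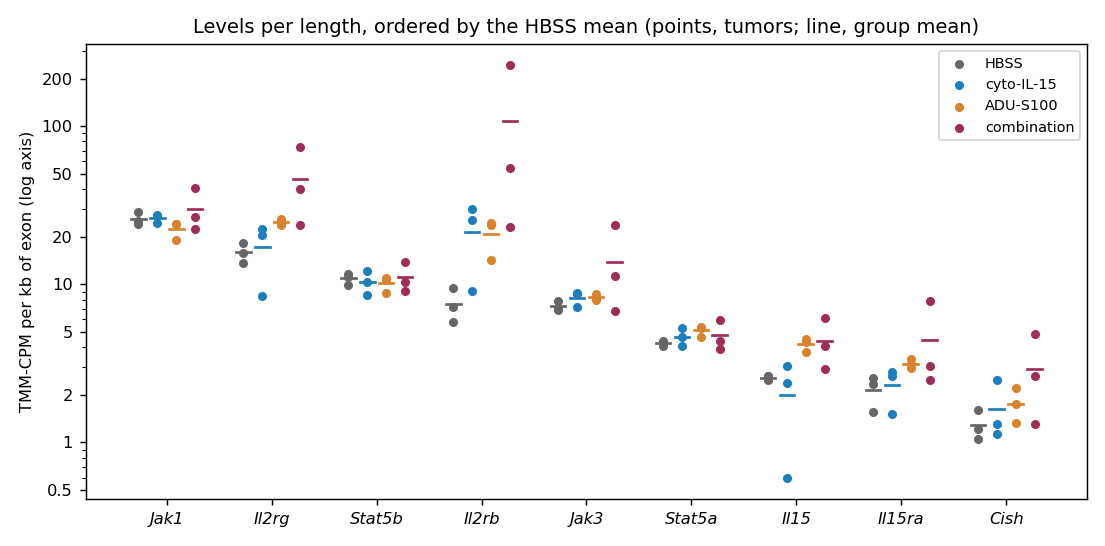
Levels of the 9 genes in TMM-CPM per kb of exon on a log axis, in the order of their HBSS means, with 1 point for each of the 3 tumors in a group and a line at the group mean. Over all tumors Jak1 spans 19.1 to 40.6, Stat5b 8.59 to 13.9 and Stat5a 3.93 to 5.99. The Il2rb points climb from 5.77 to 9.50 in HBSS tumors to 22.9 to 245 in combination tumors.

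Il15 encodes the ligand itself and lies on chromosome 8 (GRCm38, 82331632 to 82403222, minus strand). Its level was 5.94, 5.92 and 5.59 TMM-CPM in the HBSS tumors 19, 22R and 22LL, and 10.1, 8.48 and 9.73 TMM-CPM in the ADU-S100 tumors 17LL, 18R and 22LR. All ADU-S100 tumors were thus above all HBSS tumors, which differed little among themselves. In the edgeR quasi-likelihood test the log2 fold change was 0.70 (SE 0.16, Benjamini-Hochberg adjusted p = 0.0378), past the p threshold but short of the fold threshold of 1 on the log2 scale that the study's definition of a differentially expressed gene also asks for. Genes that meet both thresholds are referred to as called. The combination tumors 20L, 22 and 28LL had 6.56, 9.18 and 13.9 TMM-CPM of Il15, also above every HBSS tumor, with a log2 fold change of 0.78 (SE 0.31, edgeR adjusted p = 0.265). The cyto-IL-15 tumors 9R, 13 and 20LL had 5.34, 1.34 and 6.84 TMM-CPM. The value of tumor 13 was the lowest of the 12 and the other cyto-IL-15 tumors lay on either side of the HBSS range, with a log2 fold change of −0.37 (SE 0.56, edgeR adjusted p = 0.919). The injected cyto-IL-15 is a protein, so Il15 counts read the RNA of the mouse and not the drug.

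Il15ra encodes the chain that binds IL-15 with high affinity and presents it to neighbouring cells (chromosome 2, 11705290 to 11734317, plus strand). It had 10.4, 6.97 and 11.4 TMM-CPM in HBSS tumors 19, 22R and 22LL, and 14.98, 14.0 and 13.1 in ADU-S100 tumors 17LL, 18R and 22LR. These groups did not overlap, but the log2 fold change of 0.55 (SE 0.20) did not pass the edgeR test after adjustment (adjusted p = 0.131). Among the combination tumors 20L, 22 and 28LL the levels were 11.0, 13.6 and 34.7 TMM-CPM. The first of these lay within the HBSS range and the last was the highest of the 12, and the log2 fold change against HBSS was 1.06 (SE 0.48, edgeR adjusted p = 0.299). The cyto-IL-15 tumors 9R, 13 and 20LL had 12.4, 6.68 and 11.7 TMM-CPM and overlapped with HBSS, with a log2 fold change of 0.10 (SE 0.33, edgeR adjusted p = 0.963). The bases before the RefSeq start of Il15ra (GRCm38.p6, chr2:11705043-11705289, plus strand) are shown because they hold a match to the interferon response motif GAAANNGAA, here on the strand opposite to the gene and given in capitals, beginning 149 bases before the start.
Il15ra upstream: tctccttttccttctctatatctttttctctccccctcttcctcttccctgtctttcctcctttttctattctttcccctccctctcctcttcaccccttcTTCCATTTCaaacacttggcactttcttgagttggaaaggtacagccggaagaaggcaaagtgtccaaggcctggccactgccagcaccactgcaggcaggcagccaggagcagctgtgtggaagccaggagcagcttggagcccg

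Il2rb encodes the β chain through which IL-15 and IL-2 signal in NK cells and T cells (chromosome 15, 78480553 to 78495066, minus strand), and with all tumors of a comparison in the fit it was the only member that edgeR called. It had 26.4, 16.1 and 20.0 TMM-CPM in HBSS tumors 19, 22R and 22LL, and 39.6, 68.3 and 65.6 in ADU-S100 tumors 17LL, 18R and 22LR. Every ADU-S100 tumor was above every HBSS tumor, by a log2 fold change of 1.48 (SE 0.25, 95% interval 0.90 to 2.05, edgeR adjusted p = 0.0175), or 2.78-fold. The call was lost without HBSS tumor 22R (adjusted p = 0.0648), HBSS tumor 22LL (0.0704) or ADU-S100 tumor 18R (0.0537), with edgeR log2 fold changes of 1.30, 1.45 and 1.35, and the fits without each of the other 3 tumors kept it. It was also lost in 1 fit of all 12 tumors, which shares the spread of every group (1.47, edgeR adjusted p = 0.588). Combination tumors 20L, 22 and 28LL had 63.8, 152 and 681 TMM-CPM of Il2rb. All were above HBSS, but they differed widely among themselves, and the log2 fold change of 3.87 (SE 0.91, 95% interval 1.67 to 6.06) had an edgeR adjusted p of 0.185. In the fit of 10 tumors without 13 and 28LL the same difference was 2.37 with an edgeR adjusted p of 0.0205, which is a call. Those tumors stood apart in these same data, and 28LL had the most Il2rb of its group. Leaving them out narrows the spread, so this call gives no separate support. Cyto-IL-15 tumors 9R, 13 and 20LL had 70.6, 25.4 and 83.3 TMM-CPM. Tumors 9R and 20LL were above every HBSS and every ADU-S100 tumor and tumor 13 lay within the HBSS range. The log2 fold change against HBSS was 1.52 (SE 0.46, edgeR adjusted p = 0.898). Without tumor 13 it was 1.89 with an edgeR adjusted p of 0.0114. That tumor had the least Il2rb of its group, so its removal was bound to raise the difference and gives no separate support. In the fits without each of the other tumors edgeR called 0 genes.

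**Figure D2:**
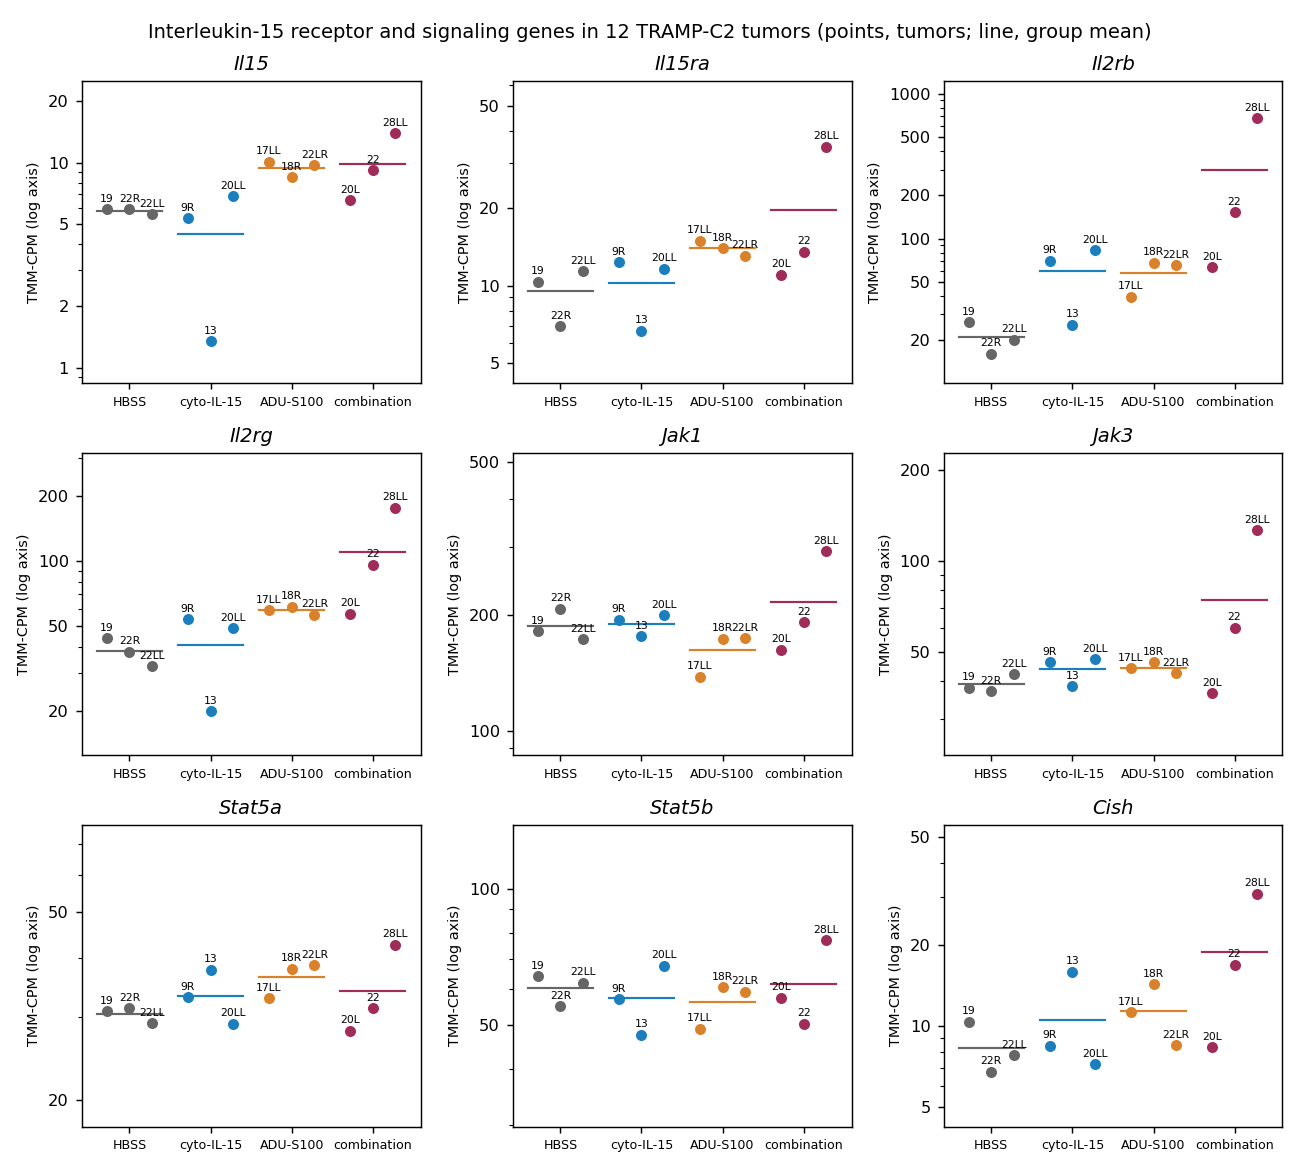
Level of each of the 9 genes in TMM-CPM on a log axis by treatment group, with 1 labelled point per tumor and a line at the group mean (n = 3). Tumor 28LL is the highest of the 12 for every gene, and tumor 13 is the lowest for Il15, Il15ra, Il2rg and Stat5b.

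Il2rg encodes the common γ chain, which receptors for IL-2, IL-4, IL-7, IL-9 and IL-21 share with that for IL-15 (chromosome X, 101264378 to 101268255, minus strand). It had 43.8, 37.9 and 32.4 TMM-CPM in HBSS tumors 19, 22R and 22LL, and 58.9, 61.4 and 56.3 in ADU-S100 tumors 17LL, 18R and 22LR. The groups were apart, with a log2 fold change of 0.63 (SE 0.13, edgeR adjusted p = 0.0265), again under the fold threshold. Combination tumors 20L, 22 and 28LL had 56.8, 96.0 and 177 TMM-CPM of Il2rg. Each was above all HBSS tumors, and the log2 fold change was 1.55 (SE 0.41, edgeR adjusted p = 0.193). DESeq2 and limma voom called both Il2rb and Il2rg in this comparison, with adjusted p values for Il2rg of 0.0146 and 0.0210. Cyto-IL-15 tumors 9R, 13 and 20LL had 53.7, 20.1 and 48.8 TMM-CPM, on both sides of HBSS, with a log2 fold change of 0.10 (SE 0.38, edgeR adjusted p = 0.965). The bases before the RefSeq start of Il2rg (GRCm38.p6, chrX:101268256-101268505, minus strand) are shown because the gene passed the adjusted p in the ADU-S100 comparison. They hold no match to either motif searched and are therefore in lower case throughout.
Il2rg upstream: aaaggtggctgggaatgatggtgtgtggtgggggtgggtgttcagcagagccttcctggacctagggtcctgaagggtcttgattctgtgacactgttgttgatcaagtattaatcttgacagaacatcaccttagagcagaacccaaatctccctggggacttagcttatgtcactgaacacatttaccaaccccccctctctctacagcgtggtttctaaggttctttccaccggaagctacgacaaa

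Neither kinase passed the edgeR test in any comparison. Jak1, which binds the β chain and is used by many cytokine receptors in almost all cells, had 181, 208 and 173 TMM-CPM in HBSS tumors 19, 22R and 22LL and 138, 173 and 174 in ADU-S100 tumors 17LL, 18R and 22LR. These ranges overlapped, with a log2 fold change of −0.21 (SE 0.13, edgeR adjusted p = 0.355). In the cyto-IL-15 group Jak1 ranged from 176 to 199 TMM-CPM and in the combination group from 162 to 293, and neither passed the edgeR test against HBSS (log2 fold changes 0.02 and 0.22). Jak3, whose product binds the γ chain and is mostly found in leukocytes, had 38.1, 37.0 and 42.1 TMM-CPM in HBSS tumors 19, 22R and 22LL. In the combination tumors 20L, 22 and 28LL it had 36.5, 60.1 and 127 TMM-CPM. The first of these was below every HBSS tumor, the last was the highest of the 12, and the log2 fold change was 0.95 (SE 0.44, edgeR adjusted p = 0.306). The ADU-S100 tumors 17LL, 18R and 22LR had 44.1, 46.2 and 42.6 TMM-CPM of Jak3, just above HBSS, with a log2 fold change of 0.19 (SE 0.11, edgeR adjusted p = 0.328). The bases before the first annotated exon of Jak3 (GRCm38.p6, chr8:71676133-71676295, plus strand) are shown because they hold the interferon response motif on the strand of the gene, in capitals, beginning 143 bases before the RefSeq start.
Jak3 upstream: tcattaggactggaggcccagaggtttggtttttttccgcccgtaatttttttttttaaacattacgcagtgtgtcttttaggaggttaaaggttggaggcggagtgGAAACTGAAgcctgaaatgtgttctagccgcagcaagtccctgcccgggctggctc

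Stat5a and Stat5b encode the closely related transcription factors that the receptor activates. Stat5a ranged from 29.1 to 31.3 TMM-CPM in HBSS tumors, and the ADU-S100 tumors 17LL, 18R and 22LR had 32.9, 38.0 and 38.6. The groups did not overlap, but the log2 fold change of 0.27 (SE 0.11) was small and did not pass the edgeR test (adjusted p = 0.183). It had 33.0, 37.8 and 29.0 TMM-CPM in cyto-IL-15 tumors 9R, 13 and 20LL and combination tumors 20L, 22 and 28LL had 28.0, 31.2 and 42.7, both overlapping with HBSS. Stat5b ranged from 54.9 to 64.1 TMM-CPM in HBSS, 47.6 to 67.6 in cyto-IL-15, 49.0 to 60.5 in ADU-S100 and 50.3 to 77.0 in combination tumors. All its groups overlapped, and its 95% intervals against HBSS, which reached from −0.48 to 0.33 for cyto-IL-15, −0.37 to 0.17 for ADU-S100 and −0.42 to 0.51 for the combination, left out a log2 fold change of 1 in either direction. Stat5 activity rests on phosphorylation, which RNA counts do not measure. The transcripts of Stat5a and Stat5b share sequence: 3.44% of the 100-base stretches of Stat5a also occur in Stat5b, so a small part of their reads could be assigned to either. Overlapping genes touch other members as well, with 24.5% of the 100-base stretches of Il2rg found also in Gm20489, 5.51% of those of Jak3 in Insl3 and 6.75% of those of Cish in Gm17041 or Gm17040.

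Cish, the STAT5-induced inhibitor, is widely used as a readout of STAT5 signaling. It had 10.4, 6.77 and 7.81 TMM-CPM in HBSS tumors 19, 22R and 22LL and 8.44, 15.9 and 7.22 in cyto-IL-15 tumors 9R, 13 and 20LL. The highest cyto-IL-15 value was that of tumor 13, where Il15 and Il2rg were at their lowest, and the groups overlapped with a log2 fold change of 0.33 (SE 0.36, edgeR adjusted p = 0.899). ADU-S100 tumors 17LL, 18R and 22LR had 11.2, 14.3 and 8.47 TMM-CPM of Cish, and combination tumors 20L, 22 and 28LL had 8.36, 16.8 and 31.0. Both groups reached into the HBSS range, with log2 fold changes of 0.45 (SE 0.23, edgeR adjusted p = 0.279) and 1.19 (SE 0.48, edgeR adjusted p = 0.266).

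The 3 comparisons with HBSS share its 3 tumors, so their values stand side by side without being independent. Against ADU-S100, edgeR called 1 of 9 members, Il2rb, where 3.53% of the 18911 genes tested were called. For 6 of 9 members (Il15, Il15ra, Il2rb, Il2rg, Jak3 and Stat5a) all ADU-S100 tumors were above all HBSS tumors and for 0 of 9 all were below, beside 16.4% of all genes above and 15.1% below. The median log2 fold change of all genes was 0.03. Against the combination edgeR called 0 of 9 members and 0% of the 18565 genes tested, although 3374 genes had an unadjusted p under 0.05, DESeq2 called 1156 genes and limma voom 923. There 3 of 9 members (Il15, Il2rb and Il2rg) did not overlap, all higher in the combination, beside 2781 genes higher and 2815 lower of those tested. Against cyto-IL-15 edgeR called 0 of 9 members and 0% of 18594 genes, with 706 genes at an unadjusted p under 0.05, 115 called by DESeq2 and 2 by limma voom, and 0 of 9 members were free of overlap, beside 4.88% of all genes above HBSS and 5.68% below.

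**Figure D3:**
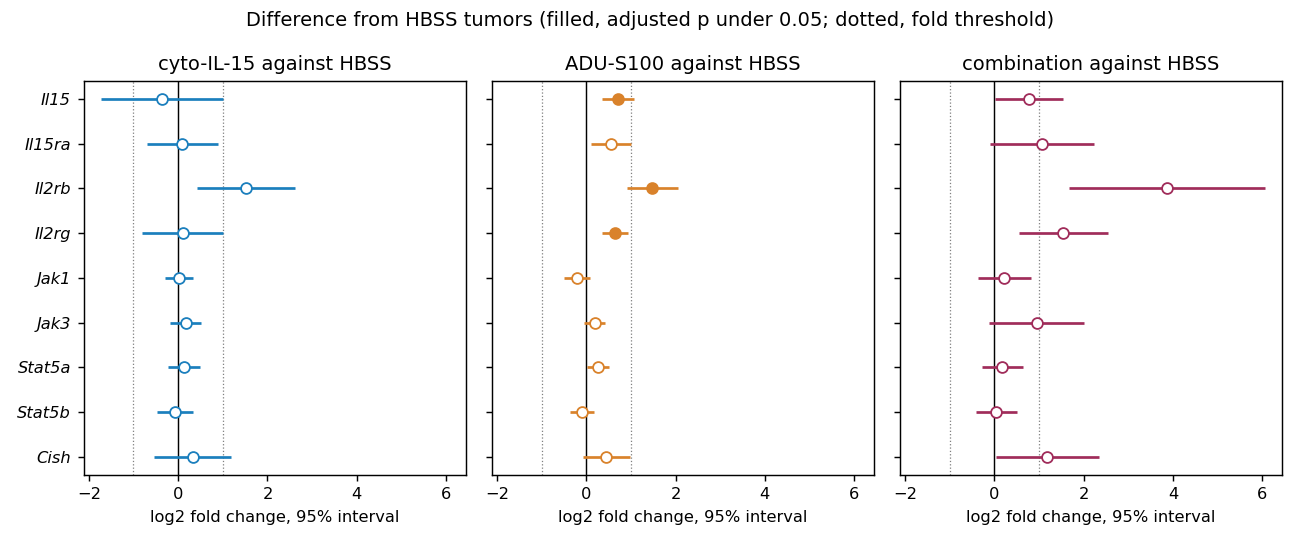
log2 fold change of each member against HBSS with its 95% interval from edgeR, in 1 panel per treatment on a shared axis. Filled points pass the adjusted p of 0.05 and dotted lines mark the fold threshold. Il15, Il2rb and Il2rg are filled in the ADU-S100 panel, and the combination panel has the largest Il2rb estimate, 3.87, with the widest interval.

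No member was called between the treated groups. ADU-S100 and cyto-IL-15 tumors differed in Il2rb by a log2 fold change of −0.07 (95% interval −1.12 to 0.98, edgeR adjusted p = 0.966), beside 0.0855% of 18708 genes called. In that comparison Il15, Il15ra and Il2rg were higher in every ADU-S100 tumor than in every cyto-IL-15 tumor, by 1.05 (SE 0.56), 0.43 (SE 0.28) and 0.50 (SE 0.35) on the log2 scale, and Jak1 was lower in every one, by −0.25 (SE 0.16), with edgeR adjusted p between 0.629 and 0.671. Of all genes there, 9.38% were free of overlap and higher in ADU-S100 and 7.63% lower. Il2rb was higher in the combination than in ADU-S100 tumors by a log2 fold change of 2.38 (SE 0.84, edgeR adjusted p = 0.884) and than in cyto-IL-15 tumors by 2.35 (SE 0.94, edgeR adjusted p = 0.785), with overlapping ranges in both. edgeR called 0% of 18689 and 0% of 18619 genes there, with 802 and 926 genes at an unadjusted p under 0.05, and DESeq2 called 4 and 111 genes and limma voom 0 and 0. Il2rg was higher in every combination tumor than in every cyto-IL-15 tumor, by 1.44 (SE 0.54, edgeR adjusted p = 0.785). Of all genes in that comparison, 6.14% were free of overlap and higher in the combination and 6.59% lower.

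The 4 groups form a layout in which each agent is present or absent, and each agent's effect was estimated over all 12 tumors as the mean of its differences with and without the other agent. For ADU-S100 the log2 effect was 1.90 on Il2rb (SE 0.51, edgeR adjusted p = 0.0900) and 1.03 on Il2rg (SE 0.29, edgeR adjusted p = 0.0966), beside 0.82% of 20132 genes called and 0 members. DESeq2 called both genes for this effect, with adjusted p values of 0.00389 and 0.0200, and limma voom called Il2rb. Without combination tumor 20L, edgeR called Il2rb (adjusted p = 0.0279) and Il2rg (0.0387). That tumor had the least of both genes in its group, so its removal was bound to raise both effects and gives no separate support. For cyto-IL-15 the log2 effect on Il2rb was 1.95 (SE 0.52, edgeR adjusted p = 0.652, unadjusted 0.00311), and that on Il2rg was 0.50 (SE 0.29, edgeR adjusted p = 0.660). edgeR called 0% of 20132 genes for it, with 1520 genes at an unadjusted p under 0.05, whereas DESeq2 called 95 genes, Il2rb among them, and limma voom 35. The interaction, which asks whether ADU-S100 acts differently when cyto-IL-15 is present, was 0.85 for Il2rb (95% interval −1.35 to 3.05, edgeR adjusted p = 1.00). It called 0% of 20132 genes in edgeR, 0 in DESeq2 and 0 in limma voom, with 461 genes at an unadjusted p under 0.05 in edgeR. The interval for Il2rb holds values from a weaker to a much stronger response in the presence of the other agent.

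Il2rb moved together with Ncr1, a marker of NK cells, which carry its product. Ncr1, which encodes the NK cell receptor NKp46, had 2.47, 1.67 and 2.30 TMM-CPM in HBSS tumors 19, 22R and 22LL and 8.09, 7.36 and 8.55 in ADU-S100 tumors 17LL, 18R and 22LR. It had 10.2, 2.64 and 9.66 TMM-CPM in cyto-IL-15 tumors 9R, 13 and 20LL and combination tumors 20L, 22 and 28LL had 8.37, 20.6 and 68.3. Tumor 13 was therefore low and tumor 28LL high for Ncr1 and Il2rb alike. The ratio of Il2rb to Ncr1 reads within a tumor lay between 4.90 and 10.7 in all 12 tumors, although Il2rb itself spanned 16.1 to 681 TMM-CPM. ADU-S100 shifted that ratio by −0.23 on the log2 scale (exact permutation test within strata of the other agent, two-sided p = 0.240) and cyto-IL-15 by 0.01 (exact permutation p = 0.975). The 12 NK cell markers summed to 58.3 to 74.6 TMM-CPM in HBSS, 47.0 to 208 in cyto-IL-15, 137 to 165 in ADU-S100 and 150 to 844 in combination tumors, with none at 0. Their part in the Il2rb difference was not tested. With the summed NK markers in place of Ncr1, the ratio was 0.251 to 0.355 in HBSS and 0.289 to 0.447 in ADU-S100 tumors. It was 0.395 to 0.541 in cyto-IL-15 and 0.425 to 0.807 in combination tumors. The shift of this ratio with cyto-IL-15 was 0.53 (exact permutation p = 0.010).

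In every treated tumor the β chain was also more abundant relative to the γ chain than in any HBSS tumor. Il2rb reads per Il2rg read were 0.603, 0.424 and 0.617 in HBSS tumors 19, 22R and 22LL and 1.31, 1.27 and 1.71 in cyto-IL-15 tumors 9R, 13 and 20LL. The groups did not overlap, and tumor 13, low in the level of both genes, had a ratio like the other cyto-IL-15 tumors. The ADU-S100 tumors 17LL, 18R and 22LR had ratios of 0.673, 1.11 and 1.16, and those of combination tumors 20L, 22 and 28LL were 1.12, 1.59 and 3.85. With cyto-IL-15 it was higher by 1.19 on the log2 scale (exact permutation test within strata, two-sided p = 0.010, or 0.060 adjusted over the 6 ratio tests, where 0.005 is the smallest p that 400 rearrangements allow). The shift was 0.94 to 1.38 when each tumor was left out in turn, with p from 0.005 to 0.025, and it does not hold at 0.05 after adjustment. For ADU-S100 the shift was 0.62 (exact permutation p = 0.085), and it was larger with the summed leukocyte markers in place of Il2rg, as given in the last section. The third ratio, Il2rg to the pan-leukocyte marker Ptprc, lay between 0.195 and 0.467 in all tumors, with shifts of 0.29 for ADU-S100 (exact permutation p = 0.125) and −0.21 for cyto-IL-15 (exact permutation p = 0.245). Because such ratios compare genes within 1 library, they do not depend on the scaling between libraries. All 3 were chosen after the levels had been seen.

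**Figure D4:**
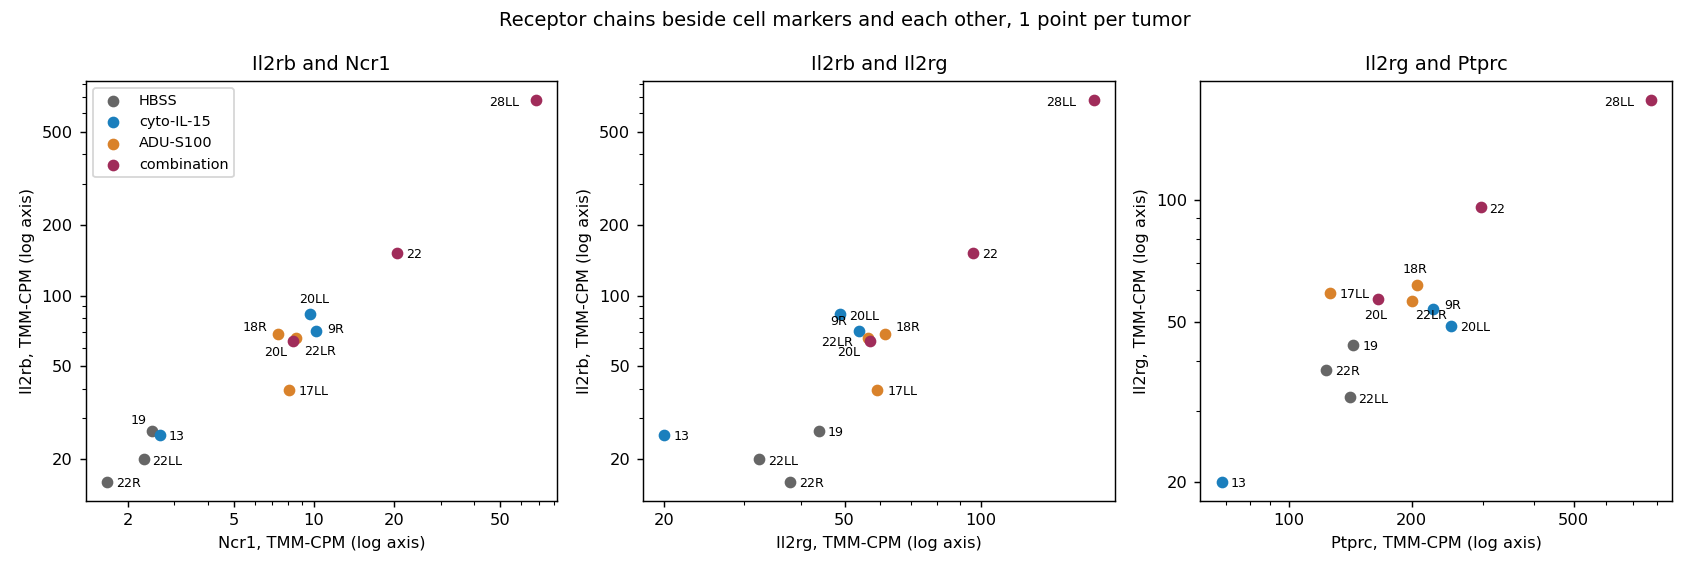
Il2rb against Ncr1, Il2rb against Il2rg, and Il2rg against Ptprc, in TMM-CPM on log axes, with 1 labelled point for each of the 12 tumors. Il2rb and Ncr1 rise together, with a ratio between 4.90 and 10.7, and in the middle panel all treated tumors have more Il2rb for their Il2rg than the HBSS tumors.

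Markers of CD8 T cells and muscle were compared by level, with no read ratio or permutation test. Cd8a, the CD8 T cell coreceptor, ranged from 6.24 to 13.1 TMM-CPM in HBSS, 12.6 to 21.1 in ADU-S100, 3.10 to 34.2 in cyto-IL-15 and 11.7 to 32.9 in combination tumors, and the HBSS and ADU-S100 ranges overlapped. Combination tumors 22 and 28LL had nearly the same Cd8a, 32.3 and 32.9 TMM-CPM, while their Il2rb was 152 and 681 TMM-CPM. The 12 T cell markers together summed to 208 TMM-CPM in tumor 22 and 304 in tumor 28LL. The part of T cells in the Il2rb difference was not tested. The muscle marker Ckm had at most 0.164 TMM-CPM in HBSS tumors and 113, 34.0 and 9.52 in ADU-S100 tumors 17LL, 18R and 22LR. Within the ADU-S100 group the tumor with the most Ckm, 17LL, had the least Il2rb. Within the combination group 28LL had the most of both (240 TMM-CPM of Ckm and 681 of Il2rb) and 20L the least of both (1.52 and 63.8), and within the cyto-IL-15 group tumor 13 had the least of both (0.116 and 25.4). With the mean level of the muscle list as a covariate over all 12 tumors the ADU-S100 difference from HBSS was −0.21 for Il2rb, −0.64 for Il15, −0.45 for Il15ra and −0.59 for Il2rg on the log2 scale. As muscle RNA was near 0 in all HBSS tumors and above them in all ADU-S100 tumors, the muscle term and the treatment cannot be told apart in that fit.

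The rest of the pathway was described with gene lists. Of the 12 other genes of the common γ chain family, 10 were tested between HBSS and ADU-S100, where 0 were called higher and 1 lower, with a median log2 fold change of 0.14. The 1 was Il9r, the receptor chain for IL-9 (log2 fold change −1.86, SE 0.38, edgeR adjusted p = 0.0265). Il7r, the IL-7 receptor chain of lymphocytes, had a log2 fold change of 1.87 (SE 0.45) and an edgeR adjusted p of 0.0516, and it was picked for mention after its value was seen. Of 21 further IL-15 signal transducers 2 were called higher and 0 lower, with a median of −0.08. Among these was Lck, a kinase of T cells and NK cells (log2 fold change 1.09, SE 0.26, edgeR adjusted p = 0.0461). Of 18 negative regulators of JAK-STAT signaling 0 were called by edgeR, with a median of −0.02.

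Of 18 genes described as STAT5 targets 3 were called higher in ADU-S100 than in HBSS tumors and 0 lower, with a median log2 fold change of 0.47. These were Gzmb and Prf1, which encode the cytotoxic granule proteins granzyme B and perforin (4.29, SE 0.35, edgeR adjusted p = 0.00165, and 3.55, SE 0.37, edgeR adjusted p = 0.00414), and Id2, a regulator that NK cells need (1.08, SE 0.14, edgeR adjusted p = 0.00487). The feedback inhibitors Socs1 (0.67, SE 0.20, edgeR adjusted p = 0.0783), Socs2 (0.56, SE 0.25, edgeR adjusted p = 0.215) and Socs3 (0.37, SE 0.14, edgeR adjusted p = 0.156), given here after their values were seen, did not pass. Among the NK cell markers 9 of 12 were called higher, led by Klrb1c (2.02, SE 0.19, edgeR adjusted p = 0.00139), Klrd1 (2.19, SE 0.24), Ncr1 (1.90, SE 0.21) and Klrc1 (1.99, SE 0.24), which encode NK cell receptors, with a median of 1.85. Among the T cell markers 1 of 12 was called, Cd8b1 (1.25, SE 0.28, edgeR adjusted p = 0.0363), and among the 6 leukocyte markers 0, with medians of 0.62 and 0.50. In the interferon lists, 15 of 16 type I interferon-stimulated genes, such as Rtp4 (2.63, SE 0.17, edgeR adjusted p = 0.000695) and Isg15 (2.97, SE 0.23), and 12 of 16 interferon-γ-inducible genes, such as Gbp3 (2.14, SE 0.16) and Irgm1 (1.92, SE 0.15), were called higher. Of the muscle markers 8 of 15 were called higher, of the macrophage and monocyte markers 2 higher and 1 lower of 10, of the dendritic cell markers 0 higher and 2 lower of 10, of the epithelial and keratinocyte markers 0 of the 4 tested, and of the fibroblast and endothelial markers 0 of 8.

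Between HBSS and the combination 0 genes of these lists were called by edgeR. The list medians were 0.69 for the common γ chain family, 0.10 for the signal transducers, 0.16 for the negative regulators, 1.25 for the STAT5 targets and 3.61 for the NK cell markers, beside 0.01 for all genes. Between cyto-IL-15 and ADU-S100 tumors 8 of 16 type I interferon-stimulated genes were called higher in ADU-S100, led by Oas2 (3.55, SE 0.20, edgeR adjusted p = 0.0134), Isg15 (3.41, SE 0.25), Irf7 (3.65, SE 0.27) and Ifit1 (3.14, SE 0.27), and 0 genes of the other lists. These calls rested on each of 5 tumors: without 9R, 20LL, 17LL, 18R or 22LR, edgeR called 0 of all genes in this comparison, with lowest adjusted p values of 0.0672 to 0.161 and 702 to 2232 genes at an unadjusted p under 0.05.

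The genes whose log2 levels followed each member most closely over the tumors, out of the 14139 genes whose mean reached 1 CPM, were sought as a description. For Il2rb these were Sh2d2a, an adaptor of activated T cells and NK cells (r = 0.993 over 12 tumors), Eomes, a transcription factor of NK cells and CD8 T cells (r = 0.992), and Gm6637 (r = 0.991). Without tumors 13 and 28LL they were Zap70 (r = 0.991), Tbx21 (r = 0.989) and Cd96 (r = 0.989), which encode a T cell and NK cell kinase, the transcription factor T-bet and a receptor of the same cells. For Il2rg they were Runx3 (r = 0.970), Dusp2 (r = 0.969) and Trpv2 (r = 0.967), and Dusp2 was 1 of the 3 again in the 10 tumors (r = 0.946). For Il15 they were Rnf115 (r = 0.981), Tap2, a subunit of the peptide transporter for MHC class I (r = 0.978), and Slco3a1 (r = 0.978), and for Il15ra the Fc receptor gene Fcgr4 (r = 0.964), Trim12a (r = 0.961) and Gnal (r = 0.957). In the 10 tumors the genes nearest to Il15 were Mbd2 (r = 0.976), Myd88 (r = 0.960) and Rab7b (r = 0.958), and those nearest to Il15ra were Pex16 (r = 0.953), Tctex1d2 (r = 0.933) and 4930577N17Rik (r = 0.931). Over the 9 members, 1 of the 27 genes found in 12 tumors was found again in 10. The 12 points share the treatments and the same libraries, and with so many genes the closest match is high for any member, so no p is given.
For the other 5 members the nearest genes over 12 tumors were Pag1, Syk and Pfkfb3 for Jak1, Pim2, Lrmda and Arhgef1 for Jak3, Tmem45a, Plpp3 and Adgrd1 for Stat5a, Nfam1, Rassf2 and Il6ra for Stat5b, and Mapkapk3, Slc1a5 and Acsl5 for Cish, with r from 0.875 to 0.981. In the 10 tumors they were Ipp, Tgfbr1 and Lpin1 for Jak1, Stk32c, Cep85 and 2900005J15Rik for Jak3, Gstm2, Cyp1b1 and Dapp1 for Stat5a, Kdm4a, Wdtc1 and Ighv3-6 for Stat5b, and Slc25a38, Dnm2 and Alg1 for Cish, with r from 0.921 to 0.987.

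RefSeq promoter windows were at hand for 7 of the 9 members, with Il15 and Il2rb not among them. The 250 bases before each start were searched on both strands for the STAT motif TTCNNNGAA and the interferon response motif GAAANNGAA, which do not overlap each other in any window shown. Of the 10 windows of the 7 genes, 0 held the STAT motif and 2 the interferon motif. These 2 were the first Il15ra window and the Jak3 window shown above, and the second Il15ra window held neither motif. Annotated exons of the same gene covered all 250 bases of the only Cish window, 175 and 139 bases of the Stat5a windows, and parts of others. A missing match in such bases does not describe the sequence upstream of the gene. Of all 32851 RefSeq windows, 7.02% held the STAT motif and 7.13% the interferon motif. Neither Il15ra nor Jak3 passed the adjusted p in any edgeR comparison, and Il2rg, which did against ADU-S100, had no match in its window.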

How the data were processed

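Whole-tumor RNA from 12 TRAMP-C2 tumors was sequenced after library preparation with the NEBNext Ultra II RNA kit. The authors deposited, for each tumor, raw read counts per Ensembl gene in the layout of featureCounts, together with exon lengths. The submitters' processing notes name STAR 2.5.2b, featureCounts (Subread 1.5.2), Trimmomatic 0.36, bcl2fastq 2.20, DESeq2, and the builds GRCm38 and mm10. The strand setting, the handling of reads with several matches and the annotation release are not given in the sources used here. Symbols came from GENCODE M21 (48970 of 49315 identifiers), and 8 of 9 members had the same coordinates there.

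Each pair of groups was fitted on its own 6 tumors, and the effects of each agent and their interaction on all 12, with edgeR 4.0.16 in R 4.3.3 (TMM scaling, filterByExpr with a minimum count of 10 and a minimum total of 15, robust quasi-likelihood F test). p-values were adjusted by Benjamini-Hochberg over all genes tested, and called genes had an adjusted p below 0.05 and a log2 fold change beyond 1 in either direction. SE is the fold change divided by the root of F. In each log2 fold change the second-named or treated group is the numerator. Correlations used log2 CPM with a prior count of 2. All 9 members passed the filter in every fit. Alternatives were DESeq2 1.42.0 (Wald test), limma 3.58.1 voom with quality weights, RLE scaling, no filter, no fold threshold, 1 fit of all tumors, the 10 tumors other than 13 and 28LL, a muscle covariate, and each tumor left out. The scripts were tested on simulated data. Ratios of reads within a tumor, their alternatives and the exact permutation tests were chosen after the data were seen.

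The members and the 14 gene lists were chosen with earlier results of these data known. Named genes are the members, from each list the 4 or fewer called genes of smallest p in a pairwise comparison, Ptprc, Ncr1, Cd8a and Ckm, and the 3 genes most like each member. Counts fell between 81 and 49583 for the members, and counting error was not separated from the spread between tumors. Cells were placed in the right flank of each mouse, but the labels do not say whether mice of tumors with related names shared a cage. The p-values measure the spread between these tumors. Promoter windows are from RefSeq (GRCm38.p6). Some genes that the naming rule admits are not reported here.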

Additional observations from a re-analysis of the deposited data

How the results depend on the processing

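Of the 9 members, edgeR called 1 between HBSS and ADU-S100 tumors. That number was 3 (Il15, Il2rb and Il2rg) with no fold threshold, 0 in 1 fit of all 12 tumors, 0 with the muscle covariate, and 0 to 1 without 1 tumor. Where edgeR called 0 members between HBSS and the combination, DESeq2 called 2 and limma voom 2 (Il2rb and Il2rg), and the 10 tumors without 13 and 28LL gave 1 (Il2rb). For the ADU-S100 effect the number was 2 by DESeq2, 1 by limma voom and 0 to 2 without 1 tumor, and for the cyto-IL-15 effect it was 1 by DESeq2. Between HBSS and cyto-IL-15 it was 0 to 1 without 1 tumor, the 1 being Il2rb without tumor 13. In the other comparisons it was 0 under every alternative run. The cause of these differences was not tested.

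With the muscle covariate, the log2 fold changes of Il15 (−0.64), Il15ra (−0.45), Il2rb (−0.21) and Il2rg (−0.59) between HBSS and ADU-S100, and of Il15 between HBSS and the combination (−0.73), had the opposite sign. Over all comparisons and members, 58 of 621 values under alternatives with a complete set of tumors or the 10 tumors had another sign than reported, these 5 among them. Of the values without 1 tumor, 61 of 648 had another sign. Besides these 5, all belonged to values whose 95% interval held 0. The 621 include the values with no fold threshold, which are those of the main fit and could not change sign. With the summed markers as denominator, the ratio of Il2rb to its denominator shifted by 0.53 (in place of Ncr1, cyto-IL-15, exact permutation p = 0.010) and 0.92 (in place of Il2rg, ADU-S100, exact permutation p = 0.010). The order of the members per length was the same in TPM.

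The number of all genes called between HBSS and ADU-S100 was 667, against 1123 by DESeq2, 1170 with no fold threshold, 0 in the fit of all 12 tumors, 2 with the muscle covariate and 325 to 624 without 1 tumor. For the ADU-S100 effect it was 165, against 1073 by DESeq2, 786 by limma voom, 471 in the 10 tumors, 3 with the muscle covariate and 14 to 605 without 1 tumor, and between cyto-IL-15 and ADU-S100 it was 16, against 267 by DESeq2, 183 by limma voom, 6 with RLE scaling, 73 with no filter, 4 in the fit of all 12 tumors, 233 in the 10 tumors, 206 without tumor 13 and 0 without each of the other 5 tumors. With 3 tumors in a group, the biological coefficient of variation was 0.242 between HBSS and ADU-S100 and 0.387 to 0.522 in the other pairs, and every member had at least 81 reads in every tumor.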
